A study of Mus musculus with 8 samples.

Results

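The mitochondrial respiratory chain was followed through 90 of the 18193 genes with a symbol of their own on the array. They are the nuclear genes whose symbols begin with Nduf, Sdha to Sdhd, Uqcr, Cox4 to Cox8 or Atp5, each read from its brightest probe set by the mean of the 8 arrays. They comprise 34 complex I subunits, 8 complex I assembly factors (the Ndufaf genes), 4 complex II subunits, 8 complex III subunits, 19 complex IV genes and 17 ATP synthase subunits. Of the 90, 85 lay above the filter on dim probe sets and entered the test across 11189 genes; Cox7a1, Cox7b2, Cox8b, Ndufaf6 and Ndufb4 lay below it and are described by their values only. Gene expression had been measured on 8 Affymetrix Mouse 430 2.0 arrays of RNA from splenocytes of male C57/BL6 mice. The HMGA1a transgenic mice (TG), which carry an added gene for an architectural chromatin protein, were set against wild-type control littermates (WT) at 2 months, before the TG mice have lymphoid tumours, and at 12 months, when by the series' design text tumours are established. Each of the 4 groups (WT and TG at 2 months, WT and TG at 12 months) holds 2 arrays, labelled biologic replicates 1 and 2, with no other allele or treatment named. The promoter of the transgene is not given in the sources used here, and splenocytes are a mixture of cell types measured together.

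The respiratory chain sits in the inner mitochondrial membrane. Complexes I and II pass electrons from NADH and succinate to ubiquinone, complex III passes them on to cytochrome c, and complex IV, cytochrome c oxidase, hands them to oxygen; complexes I, III and IV pump protons, and ATP synthase uses the proton gradient to make ATP. Most subunits are encoded in the nucleus and imported, and several have tissue forms that replace a widely expressed one in muscle, testis or lung. In lymphocytes the chain is known to be enlarged when resting cells become activated and divide.

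The arrays were alike in overall scale, with median signals of 44.9 to 49.5. Markers of spleen lymphocytes were present on every array: the summed signal of 9 B cell markers lay between 13094 and 25869 and that of 9 T cell markers between 3374 and 8784. One library stood apart. On the WT array of 2 months with replicate number 1, the 7 exocrine pancreas markers summed to 15140, against 489 to 843 on the other 7 arrays, and the medians at 2 months are given with and without it. Arrays with replicate number 1 and number 2 tended to differ in the same genes in all 4 groups, and values are also given within each number. No probe set carried Hmga1 as its only symbol, and the level of the transgene was not analysed here.

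Promoter sequence was examined first, because nuclear respiratory factor 1 (NRF1) and the ETS factor GABP are known regulators of many of these genes. In the 250 bases before the annotated start, on either strand, the NRF1 motif was found for 12 of the 74 members with a promoter in the RefSeq table (16.2%), against 9.41% of 9069 tested genes and 4.23% of all 27025 genes in the table. The ETS letters CCGGAAG, read as CTTCCGG on the other strand, were found for 14 members (18.9%), against 15.7% and 7.83%. The motif of YY1, a further regulator, was found for 0 members, against 0.562% of tested genes. Promoters of members had a median GC content of 57.6% and those of tested genes 61.2%. Any of the 3 motifs stood in 7 of 15 ATP synthase promoters (46.7%), 7 of 31 of complex I (22.6%), 3 of 7 of its assembly factors, 2 of 3 of complex II, 2 of 5 of complex III and 2 of 13 of complex IV (15.4%). Over all members the share was 31.1% and over the tested genes 23.8%, which complex I did not exceed.

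The following windows, from the RefSeq table of GRCm38.p6 and written 5′ to 3′ along the gene's strand, belong to members whose TG and WT arrays did not overlap at 12 months and which carry a match outside the annotated gene. Capitals mark the match, of the NRF1 motif in the first 3 and of the ETS letters in the last.
Atp5g2, chr15:102671055-102671114, minus strand: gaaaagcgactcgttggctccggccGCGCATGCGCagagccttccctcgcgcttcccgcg
Ndufa8, chr2:36049339-36049393, minus strand: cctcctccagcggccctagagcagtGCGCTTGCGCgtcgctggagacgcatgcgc
Ndufaf4, chr4:24897945-24898004, plus strand: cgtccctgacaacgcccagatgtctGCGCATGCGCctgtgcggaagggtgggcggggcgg
Atp5e, chr2:174464172-174464228, minus strand: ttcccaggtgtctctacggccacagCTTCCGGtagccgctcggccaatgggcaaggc
Atp5c1 and Atp5j also held a match, before one of several annotated starts and inside the annotated gene. Of the members with both TG arrays above both WT arrays at 12 months 6 of 25 held a motif (24.0%), and of the other members 17 of 49 (34.7%), beside the 23.8% of tested genes. The matches are letters in a window and were not tested as binding sites.

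At 12 months most respiratory chain genes had a higher signal in TG than in WT spleen cells, by a small amount, and no single gene passed the test. Of the 90 members 72 were higher, with a median log2 difference of 0.17 on the log2(signal + 16) scale (0.18 within replicate 1 and 0.14 within replicate 2), whereas the median over all genes tested was -0.034 and 45.2% of them lay above 0. ATP synthase subunits had the largest median of the 6 roles. Within complex IV the tissue-restricted forms had a negative median, over all 8 as over the 5 above the filter. Signals of bulk spleen cannot tell a change in the share of a cell type from a change in RNA per cell.

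None of the 85 tested members passed the adjusted threshold of 0.05, and neither did any other gene (0%; limma, Benjamini-Hochberg adjusted over 11189 genes, smallest adjusted p = 0.586 among members, 0.232 among all). At an unadjusted p under 0.05 in limma, 7 members were higher and 1 lower, which is 8.24% and 1.18% of those tested, beside 2.59% and 5.14% of all genes. With the replicate number as a block these counts were 27 and 2 (31.8% and 2.35%), beside 7.26% and 12.6% of all genes; 0 members then passed the adjusted test (smallest adjusted p = 0.0933, Atp5c1), beside 0.0447% of all genes. Both TG arrays lay above both WT arrays for 29 of the 85 (34.1%) and below for 3 (3.53%), beside 14.3% and 19.9% of all genes tested. The difference was above 0 within both replicate numbers for 55 members, 64.7% against 26.9% of all genes, and below 0 within both for 8, beside 35.5%. The TG mice of 12 months had the highest and the WT mice of 12 months the lowest of the 4 group means for 40 members, 47.1% against 12.2% of all genes tested. The WT mice of 12 months alone were lowest for 55 members, beside 24.9%, and the TG mice of 12 months highest for 52, beside 28.9%.

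**Figure D1:**
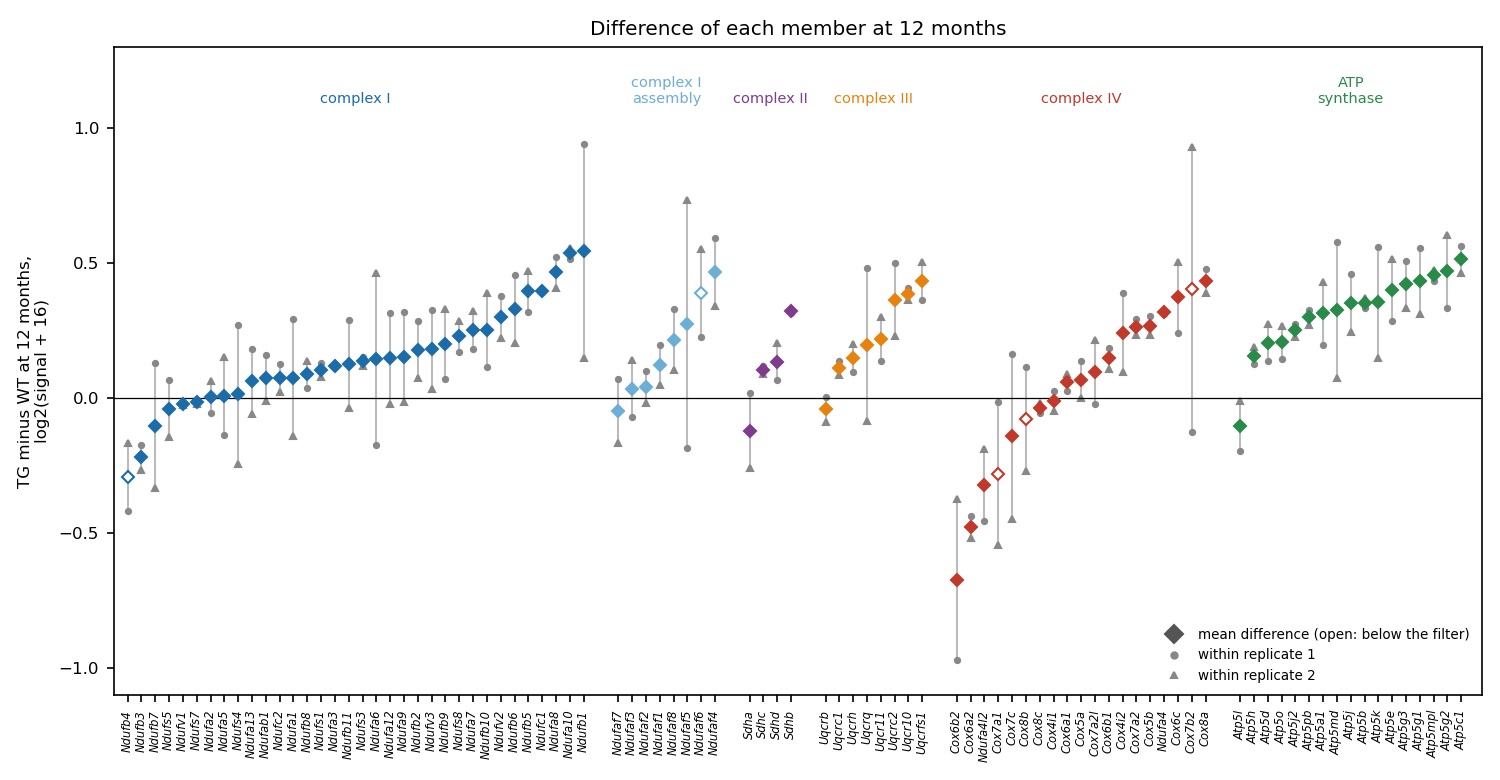
Difference of TG minus WT at 12 months for each of the 90 members, on the log2(signal + 16) scale, grouped by complex and ordered by size. Diamonds are differences of group means (open where the probe set lay below the filter), and the circle and triangle of each gene are the differences within replicate 1 and replicate 2. In ATP synthase 16 of 17 diamonds lie above 0, while complex IV spans from -0.67 to 0.43.

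These values moved with every array of 12 months. Without the TG array of 12 months with replicate number 2 the median of the members was 0.118 (59 of 90 higher). The median of the members was 0.066 (57 of 90 higher, 0 with an unadjusted p under 0.05) without the WT array of 12 months with replicate number 1, and 0.27 (11 such members) without the TG array of 12 months with that number. Without the WT array of 12 months with number 2 the median was 0.24 and 4 members were higher at an unadjusted p under 0.05, and without either WT array of 2 months 3 were. Leaving out 1 array sets unequal replicate numbers against each other, so that the within-replicate values above are the balanced ones.

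ATP synthase subunits were higher in TG mice of 12 months for 16 of 17 genes, with log2 differences centred on 0.35 (0.33 among replicates 1, 0.27 among replicates 2) and on 0.23 without the WT array of 12 months with replicate number 1. In 11 of the 17 both TG arrays lay above both WT arrays, beside 14.3% of all genes tested. At an unadjusted p under 0.05 in limma 11 were higher with the replicate block and 3 without it, beside 7.26% and 2.59%. Atp5c1 encodes the gamma subunit, the central shaft that turns inside the catalytic head, and lies at chr2:10056030-10080510. Its signal was 1815 and 1897 on the WT arrays and 2694 and 2624 on the TG arrays of 12 months, against 2111 and 2235 in WT and 2224 and 2278 in TG at 2 months. The TG arrays of 12 months were thus the highest and the WT arrays of 12 months the lowest of the 8, without overlap. The log2 difference at 12 months was 0.52 ± 0.16 (SE, n = 2; limma, adjusted p = 0.586, or 0.0933 with the replicate block). A dimmer second probe set of Atp5c1 differed the other way, and the mean of its probe sets gave -0.049.

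The c ring, which rotates as protons pass, is built from 3 genes that encode the same mature protein behind different import sequences. All 3 were higher in TG mice. Atp5g2 (chr15:102662868-102671047), whose promoter window is printed above, had signals of 1808 and 1783 in WT and 2285 and 2719 in TG mice of 12 months, a log2 difference of 0.47 ± 0.18 (SE, n = 2). Atp5g1 had 550 and 756 in WT and 817 and 940 in TG mice, a log2 difference of 0.43 ± 0.24. For both genes the arrays of the 2 genotypes did not overlap. Atp5g3 had 3882 and 5677 in WT and 5528 and 7158 in TG mice, so its arrays overlapped, while its difference was 0.51 within replicate 1 and 0.33 within replicate 2.

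Of the other parts of the enzyme, all 5 genes of the F1 head and stalk were higher (median 0.35), as were all 4 of the peripheral stalk that holds the head still (median 0.25). For Atp5a1, of the head, the chosen probe set differed by 0.31. Another bright one, with a mean signal of 1800, differed by -0.031 and a dimmer one, at 184, by 0.31. Atp5j2 and Atp5k also had probe sets of both signs. With the probe sets of each gene averaged, the ATP synthase median was 0.325. Atp5b, the catalytic beta subunit, had 3009 and 3575 in WT and 3790 and 4631 in TG mice of 12 months. Atp5mpl, a small proteolipid of the membrane part (chr12:111961374-111967009), had 886 and 865 against 1203 and 1210, a log2 difference of 0.45 ± 0.16 (SE, n = 2; limma, adjusted p = 0.591, or 0.11 with the replicate block). Its 4 arrays at 12 months were clearly apart, whereas those of 2 months, from 964 to 1062, overlapped. Atp5l, the membrane subunit g, was the exception among the 17, at 1040 and 1472 in WT and 906 and 1462 in TG mice, with a log2 difference of -0.10 ± 0.31.

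**Figure D2:**
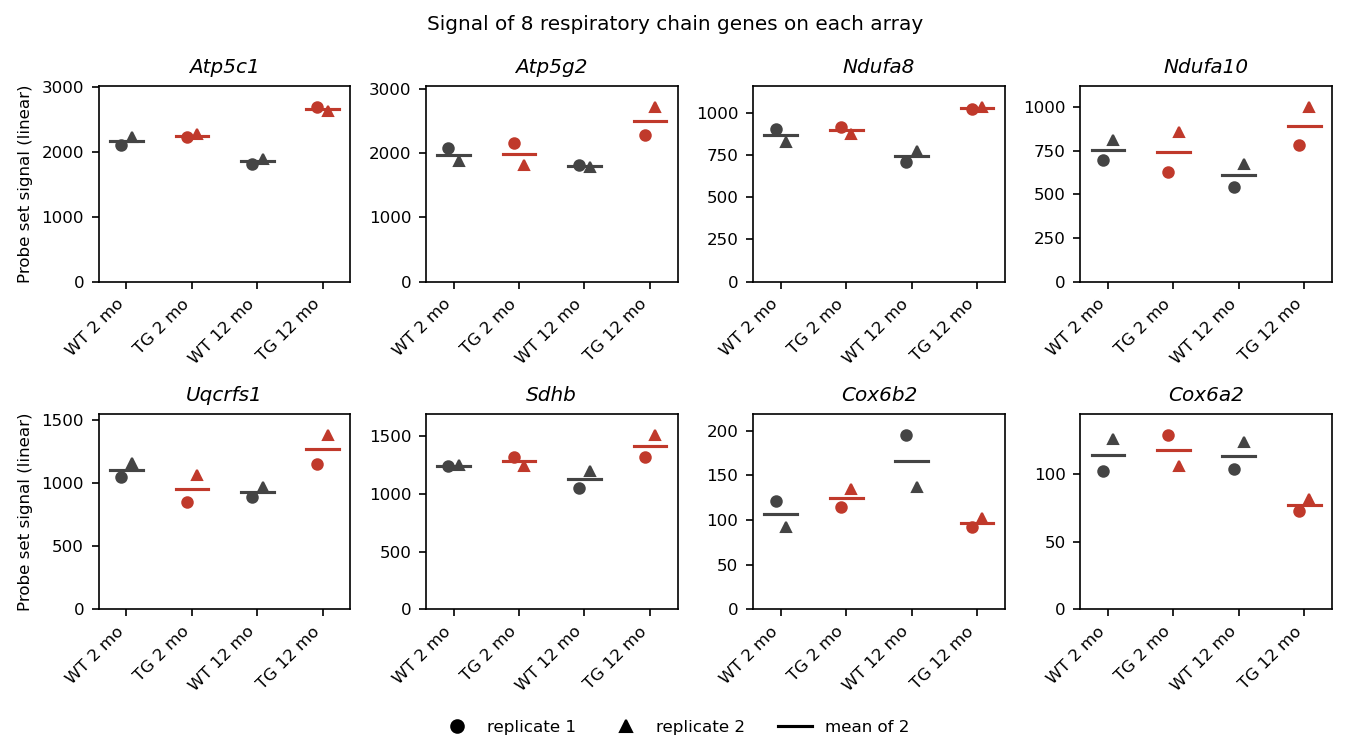
Probe set signal on a linear axis from 0 for 8 members on each of the 8 arrays; circles are replicate 1, triangles replicate 2, and lines the mean of the 2. In the upper row and for Uqcrfs1 and Sdhb both TG arrays of 12 months lie above both WT arrays of that age, and for Cox6b2 and Cox6a2 both lie below.

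Complex I subunits were higher in TG mice of 12 months for 28 of 34 genes, and the middle difference was 0.13 (0.17 for replicate 1, 0.078 for replicate 2). This median was 0.031 without the WT array of 12 months with replicate number 1 and 0.22 without the one with number 2. The 6 core subunits, most of which carry the flavin or iron-sulfur centres, had a median of 0.12. The 28 supernumerary subunits, which brace the core, had one of 0.14. Ndufa8, a supernumerary subunit on the intermembrane space side (chr2:36036324-36049338), had signals of 708 and 775 in WT and 1025 and 1034 in TG mice, a log2 difference of 0.47 ± 0.16 (SE, n = 2; limma, adjusted p = 0.591, or 0.112 with the block). At 2 months its 4 arrays lay between 828 and 918, between the values of the older WT and the older TG mice. Ndufa10, a matrix-side subunit related to nucleoside kinases, had 541 and 675 against 781 and 1000, and the difference was alike within replicate 1 (0.52) and replicate 2 (0.56). Ndufc1, a small membrane subunit, had 533 and 596 against 704 and 791.

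Among the core subunits, Ndufv2, which carries an iron-sulfur cluster near the NADH site, had 1042 and 1080 in WT and 1358 and 1264 in TG mice. The largest core subunit, Ndufs1, had 420 and 417 against 460 and 442. These arrays too were apart, by a small margin for Ndufs1. Ndufa1, needed for the membrane arm, had 2362 and 2885 against 2900 and 2614 and overlapped. The lower members were few: Ndufb3, a subunit of the membrane arm, had 670 and 884 in WT and 593 and 732 in TG mice. Ndufb7 had a log2 difference of -0.10 and Ndufs5, on the intermembrane space side, one of -0.039, both with overlapping arrays. A dimmer probe set of Ndufb7, with a mean signal of 586, differed by 0.023.

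Complex I is put together by assembly factors that leave the finished enzyme. Of the 8 Ndufaf genes 7 were higher, with a median of 0.17. Ndufaf4 (chr4:24898083-24905001), which acts early in assembly, had 160 and 159 in WT and 249 and 206 in TG mice of 12 months, a log2 difference of 0.47 ± 0.20 (SE, n = 2). The arrays did not overlap, and all 4 arrays of 2 months lay between 161 and 199. Ndufaf8 had 346 and 440 against 439 and 473, with a slight overlap. Ndufaf5, a hydroxylase that modifies a core subunit, was dim and went opposite ways within replicate 1 (-0.18) and replicate 2 (0.73), and Ndufaf7, a methyltransferase for another core subunit, differed by -0.047.

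Complex II, succinate dehydrogenase, links the chain to the citric acid cycle. Its iron-sulfur subunit gene Sdhb had signals of 1052 and 1200 in WT and 1313 and 1510 in TG mice of 12 months, without overlap, a log2 difference of 0.32 ± 0.17 (SE, n = 2; limma, adjusted p = 0.705, or 0.188 with the block). The other 3 overlapped. The membrane anchors Sdhc and Sdhd differed by 0.10 ± 0.31 and 0.13 ± 0.19. The flavoprotein gene Sdha differed by -0.12 ± 0.20, with values of 1382 and 1295 in WT and 1402 and 1079 in TG mice. Another bright probe set of Sdha differed by -0.124 and a dimmer one, with a mean signal of 101, by 0.18.

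In complex III 7 of 8 genes were higher, and the median was 0.21 (replicate 1, 0.25; replicate 2, 0.21). Uqcrfs1 encodes the Rieske iron-sulfur protein, which carries electrons from ubiquinol towards cytochrome c (chr13:30540312-30545316). Its signal was 892 and 972 in WT and 1154 and 1383 in TG mice of 12 months, and 1049 and 1160 in WT and 852 and 1061 in TG mice of 2 months. The TG mice were therefore lower than WT within both replicates at 2 months and higher within both at 12 months. Uqcrc2, a core protein, had 1082 and 1083 in WT and 1538 and 1272 in TG mice, and Uqcr10, a small subunit, 572 and 755 against 763 and 976; neither overlapped. Uqcrb, which sits near the ubiquinone site, had 4044 and 4725 against 4062 and 4440, a log2 difference of -0.041.

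Complex IV was the most mixed. Of its 19 genes 11 were higher at 12 months, with a median of 0.069. The 11 forms found in most tissues had a median of 0.15, with 9 higher, and the 8 tissue-restricted forms one of -0.18, with 2 higher. Of these 8, 5 lay above the filter, with a median of -0.32 and 1 higher. Among the common forms, the zinc-binding subunit Cox5b had 2533 and 2909 in WT and 3128 and 3424 in TG mice, and Cox7a2 had 2945 and 3378 against 3614 and 3978, neither overlapping. Cox6c (log2 difference 0.37 ± 0.27) and Cox8a (0.43 ± 0.26) were higher within both replicates but overlapped. Another bright probe set of Cox8a differed by 0.41 and a dim one, with a mean signal of 55, by -0.047. Cox4i1, the subunit through which ATP is known to inhibit the enzyme, had 2564 and 3154 in WT and 2609 and 3053 in TG mice, a log2 difference of -0.011 ± 0.20, and Cox6a1 differed by 0.058 ± 0.33.

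Among the tissue-restricted forms, Cox6b2, known as the testis form of Cox6b1 (chr7:4751792-4753094), had 195 and 137 in WT and 91.8 and 102 in TG mice of 12 months. The log2 difference was -0.67 ± 0.24 (SE, n = 2; limma, adjusted p = 0.599, or 0.152 with the block), and the WT arrays of 12 months were higher than all other 6 arrays, which lay between 91.8 and 135. Cox6a2, the heart and skeletal muscle form, had 104 and 124 in WT and 72.5 and 81.7 in TG mice, a log2 difference of -0.48 ± 0.22, the TG arrays being the lowest of the 8. Cox8c, another testis form, had 294 and 288 against 282 and 284, apart by a small margin. Ndufa4l2, the hypoxia-induced relative of the complex IV subunit Ndufa4, varied more between replicates than between genotypes, with 38.3 and 96.7 in WT and 23.6 and 82.9 in TG mice. The lung form Cox4i2 ranged from 30.1 to 68.5 over the 8 arrays. The muscle forms Cox7a1 (4.0 to 14.3) and Cox8b (1.48 to 11.1) lay below the filter, and 8 striated muscle markers summed to 183 and 306 in WT and 195 and 207 in TG mice of 12 months.

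**Figure D3:**
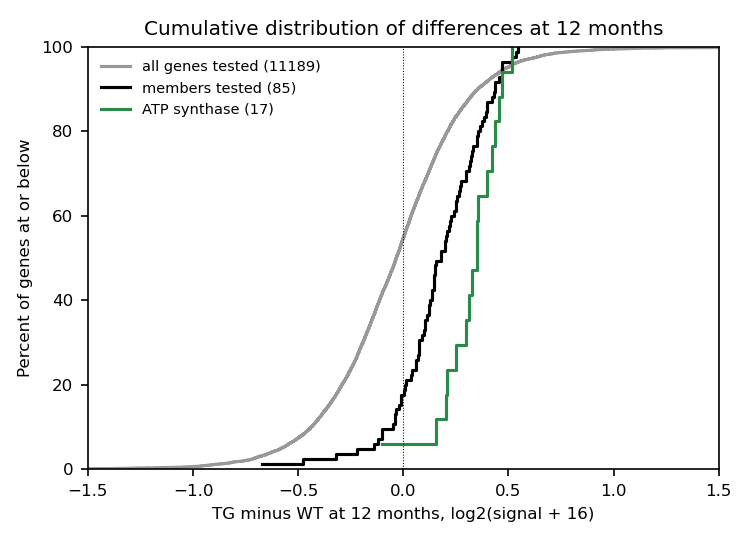
Cumulative share of genes, in percent, against the difference of TG minus WT at 12 months on the log2(signal + 16) scale, for all 11189 genes tested, the 85 members tested and the 17 ATP synthase genes. The curve of the members lies to the right of the curve of all genes (medians 0.18 and -0.034) and that of ATP synthase further right (0.35).

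Other measures also differed between the genotypes at 12 months. For control transcripts probed at both ends, the signal at the 3' end over that at the 5' end rises with RNA degradation. It was 1.25 and 1.73 for Gapdh in WT and 0.843 and 1.21 in TG mice, and 1.48 and 1.31 against 1.20 and 1.10 for beta-actin. All 15 mitosis genes were higher in TG mice (median 0.66, summed signal 9064 and 10944 against 6604 and 7391). Of the T cell markers 8 of 9 were higher (summed signal 4597 and 8784 in TG, 3374 and 4234 in WT mice). Of the B cell markers 8 of 9 were lower (13094 and 24159 against 19144 and 25869), as were 7 of 8 macrophage markers (9596 and 13330 against 17098 and 17872) and 8 of 8 dendritic cell markers (3359 and 3393 against 4743 and 5274). The 7 neutrophil markers were all higher on average (summed signal 9205 and 20818 against 5696 and 10025), though their median was -0.072 within replicate 1. No marker of these lists had a mean signal near 0, the dimmest being Xcr1 of the dendritic cells at 81.5. Of other markers at 12 months, 4 of 7 NK cell, 3 of 6 erythroid and 4 of 8 stroma and endothelium markers were higher. So were 1 of 6 plasma cell and 0 of 6 platelet markers. At 2 months all 15 mitosis genes, 8 of 9 T cell and all 7 neutrophil markers were higher in the group means. Their medians were 0.26, 0.25 and 0.58. Within replicate 2, without the array with the high pancreas markers, they were 0.52, 0.16 and 0.90. Within replicate 1 they were 0.021, 0.33 and 0.27, and the mitosis genes summed to 5047 in TG and 5280 in WT mice. Of the B cell markers 8 of 9 were lower at 2 months (median -0.12; -0.014 within replicate 1 and -0.27 within replicate 2). The part of these measures in the differences of the members was not tested.

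At 2 months, before tumours, the members differed little between the genotypes. Of the 90, 61 were higher in TG mice, with a median log2 difference of 0.035 (0.057 and 0.036 within replicates 1 and 2), beside 0.009 for all genes tested, of which 52.5% lay above 0. No member passed the adjusted test or had an unadjusted p under 0.05 in limma, and of all genes 0% passed, with 0.295% higher and 0.0983% lower at the unadjusted threshold. With the replicate block 1 member was higher, Atp5o, and 0 lower, beside 0.992% and 0.697%. Both TG arrays lay above both WT arrays for 5 of the 85 and below for 3, beside 10.1% and 7.83% of all genes. Without the WT array with the high pancreas markers the median was -0.020 and 38 of 90 members were higher, and the median was 0.104 to 0.105 without the other WT array or the TG array with replicate number 1, and 0.001 without the TG array with number 2. Atp5o, the peripheral stalk subunit that ties the head to the stalk, had 1162 and 1227 in WT and 1371 and 1453 in TG mice of 2 months, a log2 difference of 0.24 ± 0.16. Ndufab1, the mitochondrial acyl carrier protein, had 544 and 616 against 641 and 727, and Ndufb6, of the membrane arm, 584 and 782 against 747 and 833. Of the members lower in TG mice, Ndufb11, of the membrane arm, had 2488 and 2353 against 2315 and 2173, a log2 difference of -0.11, and Ndufaf7 differed by -0.16. On the WT array without the pancreas signal, the signals of Atp5o and Ndufab1 still lay below both TG arrays, and that of Ndufb6 lay between them. ATP synthase had a median of 0.025 at this age (0.056 after quantile normalization) and complex I one of 0.030. Neither sign was stable: without the array with the high pancreas markers the medians were -0.082 and -0.015, without the other WT array 0.129 and 0.104, without the TG array with replicate number 1 0.099 and 0.141, and without the TG array with number 2 -0.001 and 0.017.

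The difference of the TG effects at the 2 ages was positive for 66 of 90 members, and the median was 0.13 (0.15 for replicate 1, 0.12 for replicate 2), beside -0.046 for all genes tested, of which 43.7% lay above 0. It was 0.34 for ATP synthase, and 0.204 after quantile normalization, 0.199 without the WT array of 12 months with replicate number 1, 0.204 without the TG array of 2 months with that number and 0.223 without the WT array of 2 months with number 2. It was 0.071 for complex I, with values from -0.008 without the WT array of 12 months with replicate number 1 to 0.163 without the TG array of 12 months with that number; each of the 8 arrays moved it by over 1.5 times. No gene of the 11189 passed the adjusted test of this difference (0%; limma); 1 member, Uqcrfs1, was positive and 1, Cox6b2, negative at an unadjusted p under 0.05, beside 0.518% and 1.39% of all genes, and with the replicate block 10 and 1, beside 2.60% and 5.54%. For Uqcrfs1 the difference was 0.64 ± 0.27 (0.66 and 0.63 within replicates 1 and 2). For Cox6b2 it was -0.88 ± 0.34. The median of the members ranged from 0.047 without the WT array of 12 months with replicate number 1 to 0.22 without the one with number 2, and was 0.21 without the array with the high pancreas markers and 0.062 without the other WT array of 2 months. It was 0.079 without the TG array of 2 months with replicate number 1 and 0.078 without the TG array of 12 months with number 2.

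With age, the members were lower at 12 than at 2 months in WT mice and mostly higher in TG mice. These comparisons share arrays with those of the genotypes and are not separate evidence. In WT mice 70 of 90 members were lower, with a median of -0.093 (-0.097 and -0.053 within replicates 1 and 2), beside 0.006 for all genes tested, of which 51.4% lay above 0. Both arrays of 12 months lay below both of 2 months for 18 of 85 members and above for 5, beside 10.9% and 12.7% of all genes. In ATP synthase 16 of 17 were lower (median -0.12; -0.040 without the WT array of 12 months with replicate number 1, -0.205 without the one with number 2, -0.047 without the WT array of 2 months with number 2 and -0.266 without the array with the high pancreas markers), and all 11 common forms of complex IV were lower (median -0.054). No member passed the adjusted test (0% of all genes; limma); at an unadjusted p under 0.05 1 was higher and 0 lower, beside 0.947% and 0.581%, and with the replicate block 1 and 2, beside 2.77% and 2.40%. Cox6b2 was that gene, with 121 and 91.8 at 2 months and 195 and 137 at 12 months, and Cox8c, also of testis, went the same way in WT (0.32 ± 0.18) and TG mice (0.31 ± 0.18). Ndufa12, on the matrix side of complex I, had 1190 and 1169 at 2 months and 1300 and 1292 at 12 months. Its other probe sets above the filter, with mean signals of 1132 and 682, differed by -0.025 and -0.049. Atp5c1, Ndufa8 and Ndufa10 had log2 differences of -0.23, -0.22 and -0.31 in WT mice, each without overlap. The median was 0.026 without the WT array of 2 months with replicate number 2 and 0.029 without the WT array of 12 months with number 1, so that its sign rests on these arrays, and -0.153 without the array with the high pancreas markers.

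In TG mice 60 of 90 members were higher at 12 months, with a median of 0.059 (0.060 and 0.057 within replicates 1 and 2), beside -0.039 for all genes tested, of which 43.7% lay above 0, and both arrays of 12 months lay above both of 2 months for 13 of 85 and below for 2, beside 10.3% and 17.4%. ATP synthase was higher for 14 of 17 genes, and the median was 0.20 (replicate 1, 0.21; replicate 2, 0.20), but 0.109 after quantile normalization and 0.10 without the TG array of 2 months with replicate number 1. No member passed the adjusted test, beside 0.00894% of all genes (limma; 0.188% with the replicate block), and 0 members were higher and 1, Cox6a2, lower at an unadjusted p under 0.05, beside 1.61% and 3.11%; with the replicate block 7 and 2, beside 4.51% and 8.87%. Uqcrfs1 had 852 and 1061 at 2 and 1154 and 1383 at 12 months, a log2 difference of 0.40 ± 0.19. Cox6a2 had 129 and 106 against 72.5 and 81.7, one of -0.52 ± 0.22, and Ndufb3 one of -0.25 ± 0.22. The median of the members ranged from 0.026 without the TG array of 2 months with replicate number 1 to 0.134 without the one with number 2, and was 0.028 without the TG array of 12 months with number 2.

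**Figure D4:**
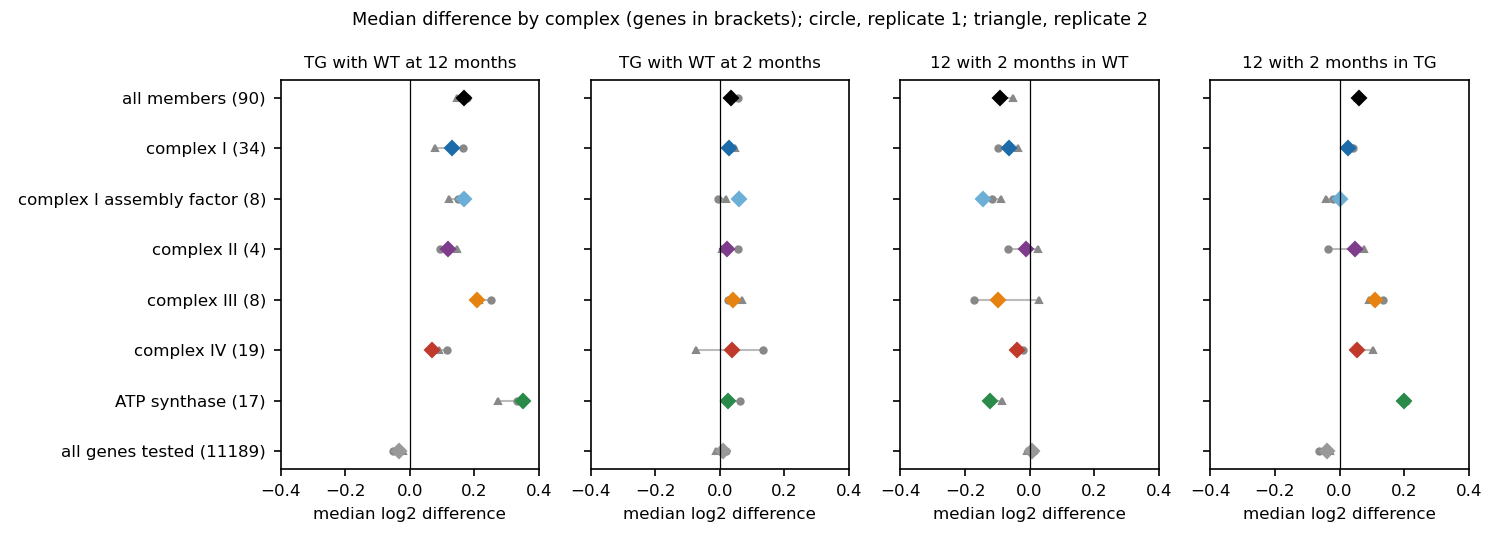
Median log2 difference of all members, of each complex (number of genes in brackets) and of all 11189 genes tested in 4 comparisons; diamonds are medians of the differences of group means, circles and triangles those within replicate 1 and replicate 2. ATP synthase stands at 0.35 for TG with WT at 12 months and at 0.025 at 2 months (-0.082 without the array with the high pancreas markers), and at -0.12 and 0.20 for 12 with 2 months in WT and in TG mice.

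**Figure D5:**
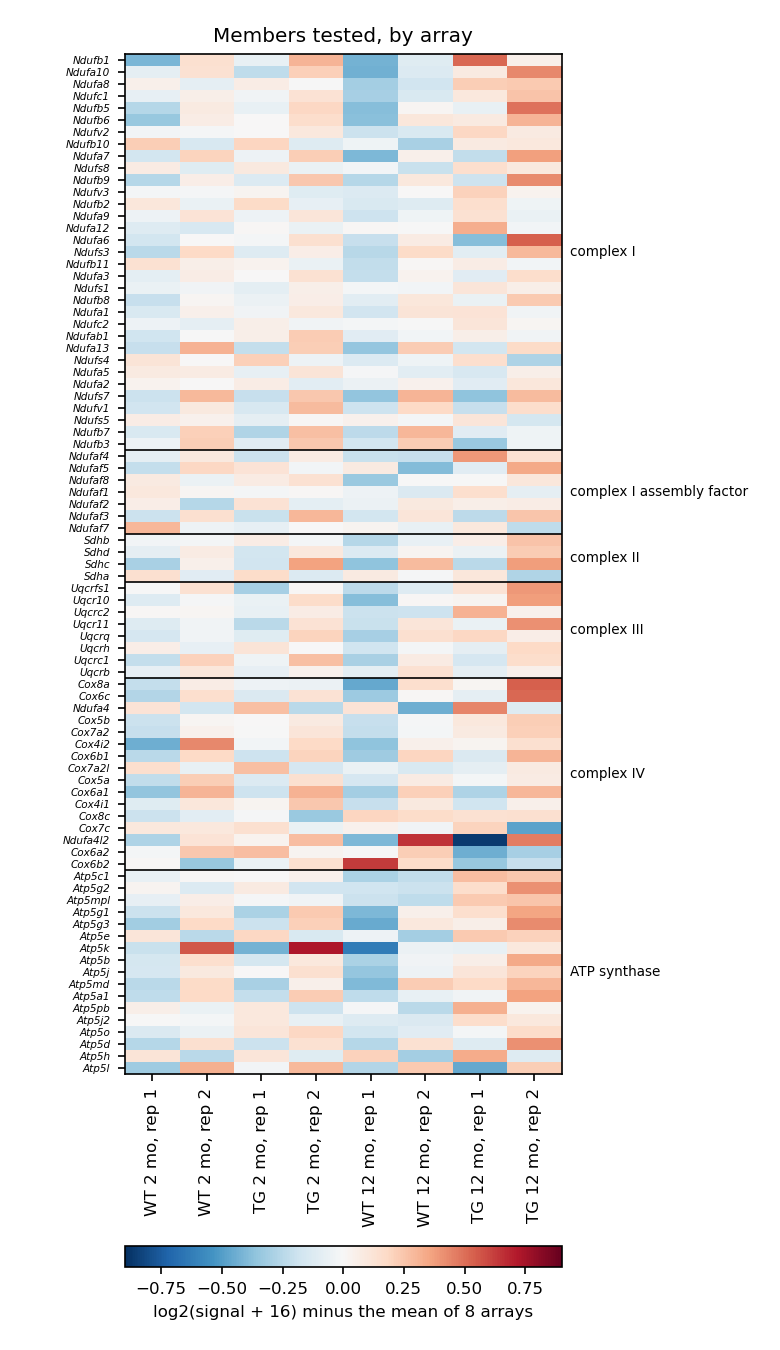
Log2(signal + 16) of the 85 tested members on each array, minus the gene's mean over the 8 arrays; rows are genes grouped by complex, columns are arrays, and red is above and blue below the mean. The WT arrays of 12 months are mostly blue and the TG arrays of 12 months mostly red in ATP synthase. Replicate 2 is redder than replicate 1 in several groups, while the median log2 signal of complex IV was higher in replicate 1.

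Replicates differed in the members as a whole. The median log2 signal of the 90 members was 9.82 and 9.96 on the WT and 9.99 and 10.13 on the TG arrays of 12 months, and 9.92 and 10.03 on the WT and 9.996 and 9.98 on the TG arrays of 2 months. The older WT array with replicate number 1 was the lowest of the 8. The median log2 signal of complex IV alone was higher with replicate number 1 in each group. At 12 months it was 10.12 and 9.70 on the WT and 10.57 and 10.02 on the TG arrays. The spread between arrays of a group had a median SD of 0.19 for the members and 0.25 for all genes tested, on the log2 scale. For 44 members more than 1 probe set lay above the filter; for 31 of them all probe sets had the same sign at 12 months, and 57 of the 70 probe sets not chosen had the sign of the chosen one. Many chosen probe sets carry suffixes of the array type (s, a or x; 12, 26 and 6 of them) that mark possible binding to related transcripts or to several transcripts of the gene, as is relevant for close relatives and pseudogenes of these genes.

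Genes that work around the chain were followed as lists, and none of them passed the adjusted test at 12 months (0%; limma). The ADP/ATP and phosphate carriers, porins and ATP synthase assembly factors were mostly higher, 8 of 10 with a median of 0.24: Tmem70, an assembly factor, had 264 and 244 in WT and 320 and 325 in TG mice, and Atpaf2, an F1 chaperone, 101 and 76.4 against 133 and 115. Complex IV assembly factors had 10 of 17 higher (median 0.043), among them Cox19, a copper-delivery factor, with 150 and 106 against 198 and 249 (log2 difference 0.74 ± 0.22; limma, adjusted p = 0.586), and Coa7 with 44.2 and 58.0 against 69.2 and 90.02. Of the complex III partners 4 of 8 were higher (median 0.048), and cytochrome c1, Cyc1, had 1144 and 1173 against 1308 and 1684, and the assembly factor Uqcc2 414 and 420 against 594 and 454. These 6 were the genes of smallest p in their lists, and all had TG arrays above WT arrays. Over the whole carrier list both TG arrays lay above both WT arrays for 5 of 10 genes. This held for 2 of 17 complex IV assembly factors and 2 of 8 complex III partners, beside 14.3% of all genes tested. Both lay below for 2, 1 and 1 genes of these lists, beside 19.9%.

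Complex I assembly factors outside the Ndufaf family had 6 of 10 higher (median 0.038; Tmem126b differed by 0.43 ± 0.29 and Lyrm2 by -0.34 ± 0.24), and complex II assembly factors 2 of 4 (median -0.006; Sdhaf2, which attaches the flavin, 0.39 ± 0.20, and Sdhaf3 -0.23 ± 0.26). In coenzyme Q synthesis 7 of 12 were higher (median 0.023). Coq4, which acts in that pathway, was dim in WT mice of 12 months at 18.9 and 20.4 and had 108 and 63.4 in TG mice, and 42.8 to 91.5 at 2 months, a log2 difference of 1.48 ± 0.29 (limma, adjusted p = 0.561, or 0.0666 with the block). Coq10a differed by -0.39 ± 0.26. Among other electron donors to ubiquinone 2 of 8 were higher (median -0.075); Etfa, which takes electrons from fatty acid oxidation, had 615 and 603 against 789 and 728, and Sqor, sulfide quinone oxidoreductase, 275 and 229 against 150 and 218.

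In the citric acid cycle 8 of 12 genes were higher (median 0.058), with opposite signs within replicate 1 (0.18) and replicate 2 (-0.085). Idh3a, the catalytic subunit of isocitrate dehydrogenase, had 470 and 451 against 780 and 561, and Idh3b 683 and 833 against 800 and 1134. Regulators of mitochondrial gene expression had 6 of 14 higher (median -0.033). The 2 of smallest p were both lower in TG mice: Nrf1 had 292 and 337 in WT and 226 and 237 in TG mice, a log2 difference of -0.41 ± 0.18 (limma, adjusted p = 0.642), and the oestrogen-related receptor gene Esrra 187 and 227 against 127 and 172. Of the antioxidant list 5 of 6 were higher (median 0.073; Txn2 0.39 ± 0.32, Prdx3 0.14 ± 0.24). None of the 13 genes of the mitochondrial genome matched a probe set with a symbol of its own under their mt- names, and they were not analysed here.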

How the data were processed

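RNA of splenocytes was hybridised to 8 arrays, 2 per group, labelled as biologic replicates. The files hold the authors' deposited intensity of each probe set, not on a log scale. GCOS 1.4 and MAS5 are named in the submitters' processing notes. Each array had the same mean, 150.001, once a share of 0.02 was trimmed at either end. Values were taken as log2(signal + 16). The 64 control probe sets were removed, those under the median of the mean log2 values dropped, and the brightest probe set kept per gene (11189 genes). A model of 4 group means was fitted with limma 3.58.1 in R 4.3.3 (trend, 4 residual degrees of freedom, without a block). Tests were 2-sided, with Benjamini-Hochberg adjustment across all genes and a threshold of 0.05. The script was tested on simulated data. Unless stated otherwise, ± is the SE of the fit.

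The difference of replicate 1 and replicate 2 correlated, over genes, in each of the 6 pairs of groups (r from 0.464 to 0.654), so the labels' numbers pair the arrays; what the number stands for is not given in the sources used here. The fit with the number as a block was an alternative, as were pseudocounts, filters, scalings, the choice of probe set and leaving out each array. Only 2 arrays a group limit the precision.

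Named were, per role, the brightest member and the 3 of smallest p in each direction at 12 months, the 3 per direction of every other comparison, tissue forms with their common forms, and 2 genes per list. Atp5b, Atp5e, Atp5j, Ndufv2 and Ndufs1 fall outside this rule and were chosen after their values were seen. Members and lists were chosen with earlier results of these data known. Promoter motifs were searched in the RefSeq table of GRCm38.p6, which held 74 of the 90 members.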

Additional observations from a re-analysis of the deposited data

Results flagged for a closer look

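The median difference of 12 with 2 months had opposite signs in the genotypes for all members (-0.093 in WT, 0.059 in TG mice), complex I (-0.064 and 0.025), complex IV (-0.038 and 0.053) and ATP synthase (-0.122 and 0.20), within both replicate numbers. The difference between the genotypes was not tested on these medians. In WT mice the sign of the median of all members turned without the WT array of 12 months with replicate number 1 (0.029) or the WT array of 2 months with number 2 (0.026), and so did that of complex I (0.029 and 0.036).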

How the results depend on the processing

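No member passed the adjusted test in any of the 5 comparisons under the alternatives run, the replicate block included (0 of 85 at 12 months, smallest adjusted p = 0.0933 with the replicate block). The median of the members at 12 months, 0.169 with and without the replicate block, was 0.145 with a pseudocount of 64 and 0.143 after quantile normalization, and lay between 0.066 and 0.268 without 1 array. At 2 months it lay between -0.020 and 0.105 without 1 array, negative without the WT array with replicate number 1. The difference of the TG effects was 0.107 after quantile normalization and between 0.047 and 0.217 without 1 array. The change with age in WT mice lay between -0.178 and 0.029 without 1 array, and it was 0.029 without the WT array of 12 months with replicate number 1 and 0.026 without the WT array of 2 months with number 2. In TG mice it was 0.078 with a pseudocount of 1, 0.051 with 64, 0.026 after quantile and 0.053 after cyclic loess normalization, 0.054 when probe sets of a gene were averaged, and between 0.026 and 0.134 without 1 array. Leaving out an array pairs unequal replicate numbers; the cause of the other shifts was not tested. Of the counts of higher members, taken over every comparison and alternative, 85 of 90 stayed within 1.5 times. With 2 arrays a group, signal and spread limit what could be called.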
